A study of Mus musculus with 6 samples.

Results

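The genes of the proteasome were followed in HSCs sorted from mouse BM. Gene symbols that begin with Psma, Psmb, Psmc or Psmd and a number were taken, and the immunoproteasome genes Psmb8, Psmb9 and Psmb10 were set apart. This gave 37 of the 21878 gene rows, of which 16 (Psma, Psmb) were assigned to the core particle and 21 (Psmc, Psmd) to the regulatory particle. The HSCs, gated as CD34-Flk2-Lin-Sca1+c-Kit+, came from wild-type C57BL/6 mice, whose age was not given in the sources used here. A total of 3 control libraries from vehicle-treated mice were compared with 3 libraries from mice that had received 1 subcutaneous dose of 200 µg/kg recombinant IGF1, at day 1 after the dose. The treatment label and the study gave IGF1, whereas the label on RNA extraction spoke of control or irradiated mice, and the libraries were taken as IGF1. The labels did not say whether replicates were separate mice, pools or repeat libraries, so p-values measure only the spread between these libraries.

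The proteasome is the main protease of the cytosol and nucleus and degrades proteins marked with ubiquitin chains. Its core particle is a barrel of stacked rings of alpha subunits, which gate the entry, and beta subunits, some of which carry the catalytic sites. The regulatory particle caps the barrel: a lid removes the ubiquitin chain, and a base with a ring of ATPases unfolds the substrate and feeds it in. Cells adjust the transcription of the subunit genes together through NRF1 (Nfe2l1), which binds antioxidant response elements, and NF-Y, which binds CCAAT boxes. Blood stem cells keep protein synthesis low and depend on protein quality control.

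Not all 37 rows are subunits of the constitutive particle. Psmc3ip encodes a meiotic recombination factor, Psma8 a testis alpha subunit and Psmb11 the thymus catalytic subunit. Without these 3 exceptions, 14 core and 20 regulatory genes remained, and the 20 included Psmd5, Psmd9 and Psmd10, which encode assembly chaperones of the base. Psmb11 was at 0 or close to it, with 0 to 0.0292 FPKM and at most 2 recovered reads in a library, and was not tested. The other 36 passed the filter of at least 1 FPKM in at least 3 libraries. FPKM divides the fragments of a gene by its length and by the library's depth.

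The upstream sequences of 5 subunit genes are shown as examples. Psmb5, Psmb6, Psmc6 and Psmd12 carry the antioxidant response element letters, as does Psmd9, which is not shown. Psmd14 is the subunit gene called changed and carries CCAAT letters, and other genes with CCAAT letters are not shown. Each sequence is the 250 bases before the RefSeq transcription start in GRCm38.p6, 5′ to 3′ on the strand of the gene. Capitals mark TGACNNNGC (the antioxidant response element) or CCAAT, read on both strands. Psmb5 lies on the minus strand at chr14:54617996-54618245 and Psmb6 on the plus strand at chr11:70525107-70525356, and both encode catalytic subunits. Psmc6 (chr14:45329574-45329823, plus strand) encodes an ATPase, and Psmd12 (chr11:107479278-107479527, plus strand) and Psmd14 (chr2:61711444-61711693, plus strand) encode lid subunits.
Psmb5: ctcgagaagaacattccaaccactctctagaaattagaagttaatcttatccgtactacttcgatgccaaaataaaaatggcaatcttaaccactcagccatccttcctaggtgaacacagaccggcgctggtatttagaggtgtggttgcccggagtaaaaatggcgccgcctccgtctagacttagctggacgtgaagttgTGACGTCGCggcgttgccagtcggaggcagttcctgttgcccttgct
Psmb6: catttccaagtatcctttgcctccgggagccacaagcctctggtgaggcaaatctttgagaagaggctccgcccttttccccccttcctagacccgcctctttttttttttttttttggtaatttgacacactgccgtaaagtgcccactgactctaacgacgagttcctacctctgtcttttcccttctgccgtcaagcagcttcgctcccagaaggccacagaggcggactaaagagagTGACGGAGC
Psmc6: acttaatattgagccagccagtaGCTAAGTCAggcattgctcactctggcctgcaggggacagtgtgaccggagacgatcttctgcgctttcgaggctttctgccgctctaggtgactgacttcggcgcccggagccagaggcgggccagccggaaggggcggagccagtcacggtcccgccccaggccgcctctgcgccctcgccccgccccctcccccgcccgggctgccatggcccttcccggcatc
Psmd12: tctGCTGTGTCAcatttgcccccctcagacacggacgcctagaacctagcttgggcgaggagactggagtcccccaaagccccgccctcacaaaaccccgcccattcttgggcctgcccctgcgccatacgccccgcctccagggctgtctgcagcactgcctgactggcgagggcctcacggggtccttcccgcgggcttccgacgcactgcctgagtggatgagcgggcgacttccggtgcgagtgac
Psmd14: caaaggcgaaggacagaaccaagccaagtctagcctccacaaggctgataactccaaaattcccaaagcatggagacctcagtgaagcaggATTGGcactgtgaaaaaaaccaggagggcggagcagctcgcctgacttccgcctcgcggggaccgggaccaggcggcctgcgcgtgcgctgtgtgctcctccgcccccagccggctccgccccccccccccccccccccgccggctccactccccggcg

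Without the exceptions, the promoter table held 11 of the 14 core and 17 of the 20 regulatory genes. The antioxidant response element letters stood upstream of 2 of the 11 core genes (18.2%; Psmb5 and Psmb6) and 3 of the 17 regulatory genes (17.6%; Psmc6, Psmd12 and Psmd9), against 11.5% of all 27025 genes in the table. The CCAAT letters stood upstream of 6 of 11 core genes (54.5%) and 5 of 17 regulatory genes (29.4%), against 37.5% of all genes. A match is a run of letters and not a measured binding site.

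The control libraries were not alike, and this touched most of the results. Depth, from whole reads recovered from the deposited values, was between 11206800 and 15973834 reads per library on an approximate scale. Over genes with 20 or more reads in a pair of libraries, 4176 and 4179 genes were more than 2-fold apart between control replicate 2 and control replicates 1 and 3, and 850 to 921 between control replicate 2 and the IGF1 libraries. This held for 126 genes between control replicates 1 and 3, and 132 to 147 among the IGF1 libraries. Their noise was above pure sampling (mean chi-squared per gene 1.52 and 1.69 to 1.89), so no pair was merged. Of the 34 subunit genes, 7 were more than 2-fold apart between control replicate 2 and each of the other controls, and at most 1 between it and an IGF1 library. Values without control replicate 2 are therefore given for the main counts of calls, the main medians and the genes named here whose call changed.

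Markers moved with the same split. Genes that the gate should leave low were abundant: Cd34 was at 640, 265 and 634 FPKM in the control libraries and at 230 to 238 FPKM after IGF1, and Flt3 (Flk2) was at 117 to 188 FPKM in all. Cd34 was called lower without control replicate 2 (log2 fold change -1.446). The HSC marker Slamf1 was at 0.736 to 2.41 FPKM and Procr at 11.5 to 18.7 FPKM, whereas the myeloid marker Mpo was at 1613 to 1705 FPKM. The summed FPKM of 5 B cell markers was 91.2, 292 and 89.9 in the controls and 293 to 309 in the IGF1 libraries, and that of 4 monocyte and macrophage markers was 49.6, 400 and 53.4 against 363 to 368. The latter sum came mostly from Ly6c2, at 26.7, 379 and 29.6 against 340 to 347 FPKM, while Csf1r had a log2 fold change of 0.12 and C1qa of -0.48. Ly6c2 was called higher without control replicate 2 (3.565). The 7 neutrophil markers summed to 2260 to 2430 FPKM in the control libraries and 2430 to 2440 in the IGF1 libraries, with 4 of the 6 that were tested called lower (Ngp, Camp, S100a8 and S100a9). Elane, on the same list, lay the other way, at 92.8, 576 and 92.5 against 692 to 709 FPKM (2.03, and called higher without control replicate 2 at 2.90). The 7 HSC markers summed to 444, 702 and 457 FPKM against 446 to 462. The megakaryocyte markers summed to 51.2 to 73.3 against 92.1 to 103 FPKM, with 1 of 4 called higher (Gp1bb) and 3 without control replicate 2. Itga2b, on the same list, lay the other way, at 32.2, 16.8 and 32.3 against 17.9 to 19.3 FPKM (-0.48, and -0.78 without control replicate 2). The erythroid markers summed to 14.7, 68.3 and 17.7 against 21.8 to 26 FPKM. The T and NK cell sum of 356 to 787 FPKM came from Nkg7, while Cd3e and Cd3d were at most at 0.745 FPKM. Nkg7 was called higher without control replicate 2 (1.105). The part of other cells in the proteasome values was not tested, and in bulk RNA fewer cells of a type and less RNA per cell cannot be told apart.

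After IGF1, the median changes of the core and regulatory particle genes lay on opposite sides of 0 in the values as deposited. All beta ring genes but Psmb7 had a log2 fold change above 0, with none called, while 16 of 21 regulatory genes had a fold change below 0, among them the deubiquitinase Psmd14. Of all 10449 genes tested, 6228 were below 0. By limma on log2(FPKM + 1), taking genes that changed more than 2-fold with an adjusted p (Benjamini-Hochberg) under 0.05, 0 of 36 tested genes were called higher and 2 lower (Psmd14 and Psma8). Over all 10449 genes tested, 1.98% were called higher and 4.63% lower. At an unadjusted p under 0.05 with no fold threshold, 1 of the 36 was higher (Psmd8) and 12 were lower, against 19.0% and 34.4% of all genes, and limma-voom on the recovered reads also called 0 higher and 2 lower. On adjusted p alone 0 were higher and 7 lower (Psma1, Psma8, Psmc1, Psmc6, Psmd11, Psmd12 and Psmd14), against 6.26% and 14.1% of all genes. The groups did not overlap for 1 gene that was higher (Psmd8) and 14 that were lower, against 21.9% and 37.4% of all genes. By each of these counts the share of the 36 that was lower was close to that of all genes. The regulatory genes accounted for 11 of the 14 that were lower without overlap and for Psmd8, and the core genes for 3.

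The median log2 fold change was 0.10 over the 15 core genes tested and -0.30 over the 21 regulatory genes, a difference of 0.41, beside -0.18 over all genes tested. Of the core genes 9 were above 0 and 6 below, and of the regulatory genes 5 were above and 16 below. Of all 10449 genes tested, 4221 were above 0 and 6228 below. Without Psma8 and Psmc3ip, the medians were 0.19 and -0.31. Without control replicate 2 they were 0.31 and -0.42, beside -0.25 over all genes, with 1 gene called higher (Psmb6) and 7 lower (Psma8, Psmc6, Psmd1, Psmd2, Psmd5, Psmd11 and Psmd14), where 12.3% and 20.6% of all genes were called. The sign of the core median depended on the scaling, since it was -0.32 after quantile normalization, against -0.37 for the regulatory genes, and the difference then shrank to 0.05.

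**Figure D1:**
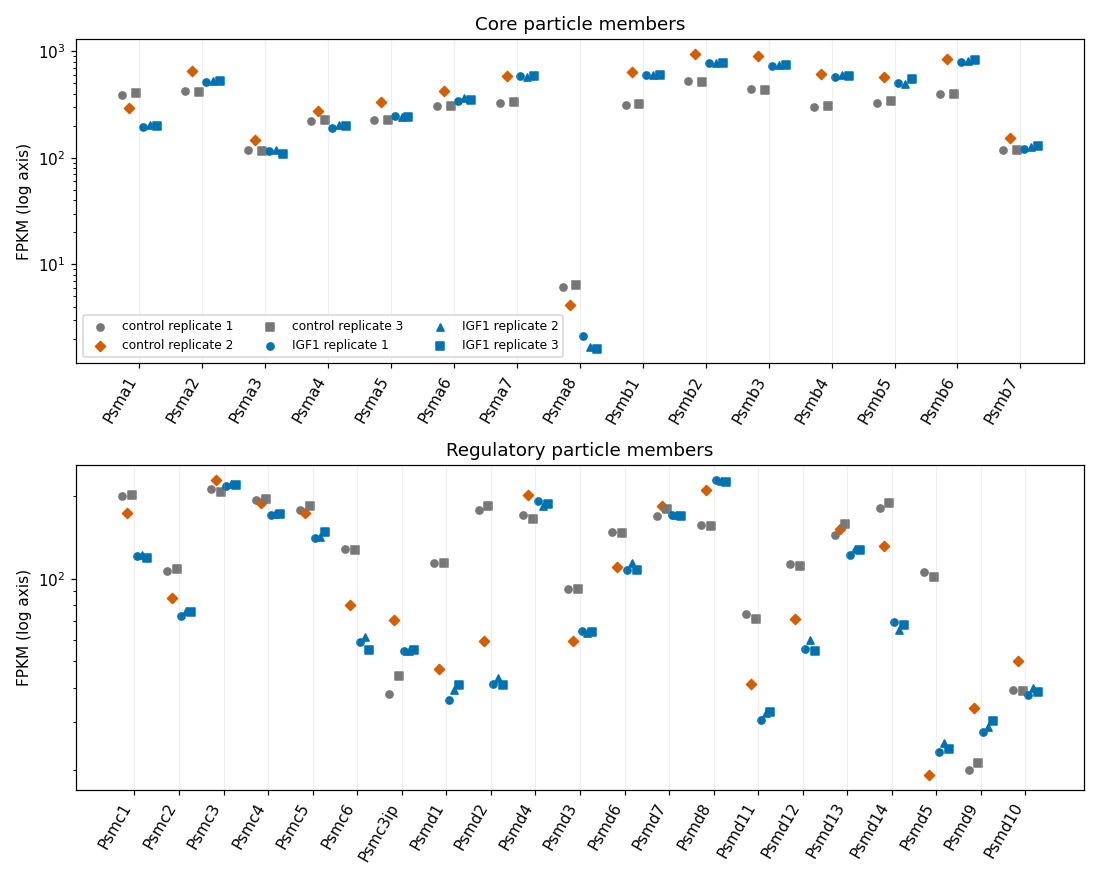
FPKM (log axis) of the 36 tested genes in each of the 6 libraries, with control replicates 1 and 3 in grey, control replicate 2 in orange and the IGF1 libraries in blue. Control replicate 2 lies above all other libraries in 13 of 15 core genes, and the IGF1 libraries lie close together throughout.

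**Figure D2:**
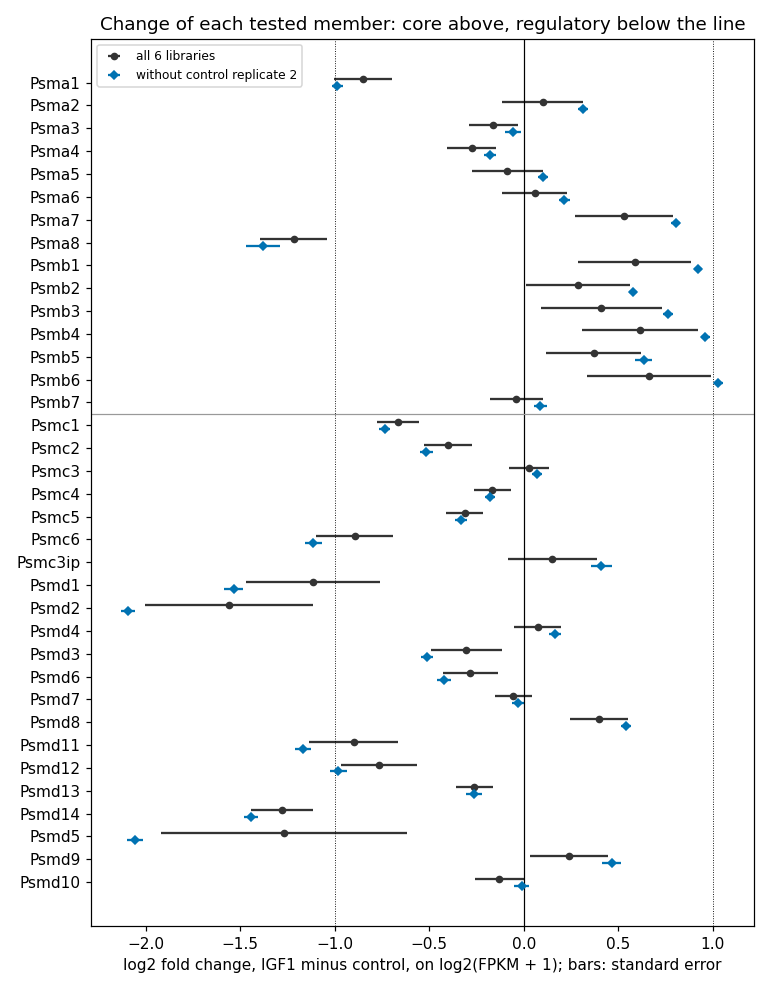
Log2 fold change (IGF1 minus control, on log2(FPKM + 1)) of each tested gene with its standard error, from all 6 libraries (black circles) and without control replicate 2 (blue diamonds). Dotted lines mark a 2-fold change, and Psmd14 and Psma8 are the genes called with all libraries.

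The catalytic subunits were examined first, and all values follow the order of replicates 1, 2 and 3. Psmb6 (beta1, caspase-like activity) was at 395, 854 and 401 FPKM in the control libraries and at 794, 815 and 833 FPKM after IGF1. Control replicate 2 was the highest library of all, so the groups overlapped, and the log2 fold change of 0.66 ± 0.33 (SE, n = 3 per group) did not pass (limma, adjusted p = 0.14). Psmb5 (beta5, chymotrypsin-like activity and the main target of proteasome inhibitors) was at 328, 580 and 340 against 506, 497 and 555 FPKM, with the same arrangement and a log2 fold change of 0.37 ± 0.25 (adjusted p = 0.253). Psmb7 (beta2, trypsin-like activity) was lower than both in every library, at 120, 155 and 117 against 122, 127 and 129 FPKM. Its log2 fold change was -0.04 ± 0.14 (adjusted p = 0.814). Without control replicate 2 the log2 fold changes of Psmb6, Psmb5 and Psmb7 were 1.03, 0.63 and 0.09. The signs of Psmb5 and Psmb6 turned after quantile normalization (-0.17 and -0.05), and that of Psmb7 after scaling to the 75th percentile (0.23).

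The non-catalytic beta subunits Psmb1, Psmb2, Psmb3 and Psmb4 gave a like picture, with log2 fold changes of 0.29 to 0.62 and 0 of 4 called by limma (0 of 4 also at an unadjusted p under 0.05). Psmb4 was at 298, 618 and 304 FPKM in the control libraries and 574, 596 and 593 FPKM after IGF1 (0.62 ± 0.31, adjusted p = 0.142). Psmb1 was at 317, 639 and 318 against 605, 600 and 603 FPKM (0.59 ± 0.30, adjusted p = 0.15). In both genes control replicate 2 stood above the IGF1 libraries, and control replicates 1 and 3 stood far below them. Without control replicate 2 the median of these 4 genes was 0.84. After quantile normalization it was -0.14, with Psmb2 and Psmb3 at -0.53 and -0.32 and Psmb1 and Psmb4 at 0.04 and 0.09. With length and GC trends removed, Psmb2 was at -0.46 and the other 3 stayed above 0.

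The alpha ring was divided. Psma1, an alpha subunit, was at 389, 297 and 403 FPKM in the control libraries and 195, 203 and 200 FPKM after IGF1, without overlap. Its log2 fold change was -0.85 ± 0.16 with an adjusted p of 0.0355, short of a 2-fold change, and it was -0.99 without control replicate 2. It passed both thresholds after quantile normalization (-1.34, adjusted p = 0.0426) and with length and GC trends removed (-1.02, adjusted p = 0.046). Psma4 was at 220, 273 and 226 against 192, 202 and 198 FPKM, also without overlap (-0.28 ± 0.13, adjusted p = 0.126). Psma7 lay on the other side, at 330, 592 and 337 against 588, 578 and 586 FPKM (0.53 ± 0.26, adjusted p = 0.134). Psma2 was at 426, 657 and 418 against 517, 529 and 527 FPKM, and Psma6 at 304, 423 and 305 against 345, 367 and 349 FPKM. For Psma2, Psma6 and Psma7 the groups overlapped, because control replicate 2 was the highest library, and the sign turned after quantile normalization (-0.53, -0.44 and -0.01). Psma3 and Psma5 had log2 fold changes of -0.16 and -0.09, with overlap. The testis subunit Psma8 was low, at 6.14, 4.17 and 6.39 FPKM in the control libraries and 2.13, 1.66 and 1.61 FPKM after IGF1, on 37 to 203 recovered reads. It was called lower (-1.22 ± 0.18, adjusted p = 0.0287), and the log2 fold change was -1.30 to -1.12 with an adjusted p of 0.141 to 0.164 without any of control replicates 1 and 3 and the IGF1 libraries. In each of those fits limma called 0 of all 10449 genes. The log2 fold change of Psma8 shrank to -0.87 with length and GC trends removed and to -0.63 with a pseudocount of 5, both short of a 2-fold change.

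Control replicate 2 was the highest of the 6 libraries in 13 of 15 core genes and in 6 of 21 regulatory genes, against 15.2% of all genes tested. It was the lowest in 0 core and 2 regulatory genes (Psmd3 and Psmd5), against 14.8%.

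In the base of the regulatory particle, 5 of the 6 ATPase genes had groups that did not overlap, all lower in IGF1, against 37.4% of all genes. By limma 0 of 6 were called, and 4 were lower at an unadjusted p under 0.05, against 34.4% of all genes. Psmc6 (Rpt4) was at 128, 80.3 and 127 FPKM in the control libraries and 58.9, 61.4 and 55.1 FPKM after IGF1 (-0.90 ± 0.20, adjusted p = 0.0421), and was called at -1.11 without control replicate 2. It was at -0.39 with length and GC trends removed. Psmc1 (Rpt2, which helps open the gate of the core) was at 201, 174 and 203 against 121, 122 and 119 FPKM (-0.67 ± 0.11, adjusted p = 0.0307). In both, control replicate 2 took an intermediate place. Psmc2 was at 107, 85.1 and 109 against 73.2, 76.2 and 76.0 FPKM (-0.40 ± 0.13, adjusted p = 0.0598). Psmc4 and Psmc5 had log2 fold changes of -0.17 and -0.31. Psmc3 was the exception, at 213, 230 and 208 against 219, 223 and 220 FPKM (0.03 ± 0.11, adjusted p = 0.838). Psmc3ip, which only shares the name, was at 37.9, 71.1 and 44.1 against 54.5, 54.5 and 54.9 FPKM (0.15 ± 0.24, adjusted p = 0.601).

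The scaffold subunits of the base had wide gaps between libraries. Psmd2 (Rpn1, which docks ubiquitin receptors and shuttles) was at 179, 59.5 and 185 FPKM in the control libraries and 41.2, 43.4 and 41.1 FPKM after IGF1. Every IGF1 library was below every control, but the distance of control replicate 2 from the other controls was larger than that from the IGF1 libraries, and the log2 fold change of -1.56 ± 0.44 did not pass (adjusted p = 0.0526). Psmd1 (Rpn2) was at 114, 47.0 and 114 against 36.1, 39.2 and 40.9 FPKM (-1.12 ± 0.36, adjusted p = 0.0608). Without control replicate 2 both were called, at -2.09 and -1.54. The ubiquitin receptor Psmd4 (Rpn10) was at 171, 203 and 165 against 193, 184 and 188 FPKM, a log2 fold change of 0.07 ± 0.12 (adjusted p = 0.622).

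Psmd14 (Rpn11), the metalloprotease of the lid that cuts ubiquitin chains off the substrate, was the constitutive subunit gene called changed. It was at 182, 132 and 189 FPKM in the control libraries and 69.8, 65.3 and 68.0 FPKM after IGF1. The lowest control was above the highest IGF1 library, and the log2 fold change was -1.28 ± 0.16 (adjusted p = 0.0286). It was -1.44 without control replicate 2, and between -1.34 and -1.01 under quantile, 75th percentile and trimmed mean scaling. Without control replicate 1 or 3 it was -1.21 and -1.18 (adjusted p = 0.141 for both). Without IGF1 replicate 1, 2 or 3 it was -1.30, -1.25 and -1.28 (adjusted p = 0.157 to 0.164). In each of these 5 fits limma called 0 of all 10449 genes, so the lost call is not particular to Psmd14. Its partner in the lid, Psmd7 (Rpn8), was at 169, 184 and 179 against 171, 171 and 170 FPKM, with overlap (-0.06 ± 0.10, adjusted p = 0.656).

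Of the other lid genes, Psmd11 (Rpn6) was at 74.4, 41.3 and 71.2 FPKM in the control libraries and 30.6, 32.3 and 32.8 FPKM after IGF1 (-0.90 ± 0.24, adjusted p = 0.0481). Psmd12 (Rpn5) was at 114, 71.5 and 111 against 55.3, 59.8 and 54.4 FPKM (-0.77 ± 0.20, adjusted p = 0.0476). Both had no overlap and did not reach a 2-fold change. Psmd11 was called at -1.17 and Psmd12 was at -0.98 without control replicate 2. With length and GC trends removed, Psmd11 was at -0.29 and Psmd12 at -0.55. Psmd8 (Rpn12) was the 1 gene with all IGF1 libraries above all controls, at 158, 211 and 155 against 230, 228 and 226 FPKM (0.40 ± 0.15, adjusted p = 0.0824). Psmd13 (Rpn9) was at 145, 152 and 159 against 122, 129 and 127 FPKM, without overlap (-0.26 ± 0.10, adjusted p = 0.0803). Psmd3 and Psmd6 overlapped, with log2 fold changes of -0.31 and -0.28. In all, 7 of 8 lid genes were below 0, against 6228 of all 10449 genes tested. The lid median was -0.29, and -0.47 without control replicate 2.

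Among the assembly chaperones of the base, Psmd5 was the gene that depended most on 1 library. It was at 106, 19.3 and 101 FPKM in the control libraries and 23.3, 25.1 and 23.9 FPKM after IGF1. Control replicate 2 was the lowest of all, and the log2 fold change of -1.27 ± 0.65 (adjusted p = 0.149) became -2.06 without it. Psmd9 was at 20.1, 33.7 and 21.2 against 27.7, 28.7 and 30.3 FPKM (0.24 ± 0.21, adjusted p = 0.356), and Psmd10 had a log2 fold change of -0.13.

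Summed over the constitutive genes, the core particle was at 4446, 7437 and 4458 FPKM in the control libraries and 6299, 6400 and 6457 FPKM after IGF1. The regulatory particle was at 2734, 2305 and 2754 against 1996, 2020 and 2003 FPKM. The ratio of the sums, which a constant factor per library leaves unchanged, was 1.63, 3.23 and 1.62 in the controls and 3.16, 3.17 and 3.22 in the IGF1 libraries. The group values were 2.16 ± 0.927 and 3.18 ± 0.0321 (SD, n = 3), and control replicate 2 had the highest ratio of all, so the groups overlapped. As a share of all FPKM, the core genes took 0.953, 1.17 and 0.956% in the controls and 0.926, 0.944 and 0.951% in the IGF1 libraries. The regulatory genes took 0.586, 0.363 and 0.591% against 0.293, 0.298 and 0.295%. The core share thus hardly differed between control replicates 1 and 3 and the IGF1 libraries, since the total FPKM was also lower in those controls.

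**Figure D3:**
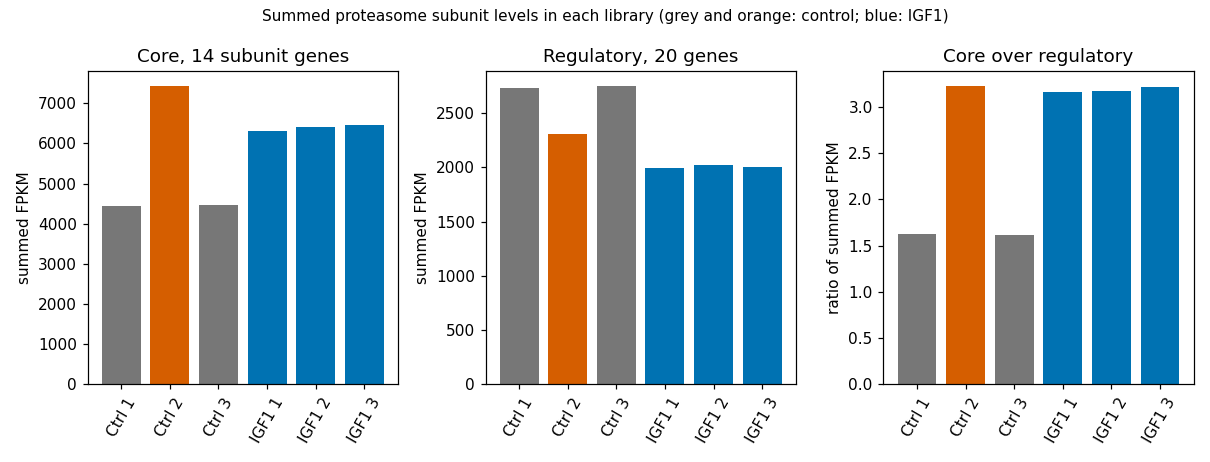
Summed FPKM of 14 core and 20 regulatory genes and the ratio of the sums, 1 bar per library (grey and orange, control; blue, IGF1), axes from 0. The ratio is 1.63 and 1.62 in control replicates 1 and 3 and 3.16 to 3.23 in the other 4 libraries.

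Immune cells can exchange the catalytic subunits for Psmb9 (beta1i), Psmb10 (beta2i) and Psmb8 (beta5i), which favour peptides for MHC class I. Psmb10 was at 94.8, 164 and 98.2 FPKM in the control libraries and 200, 194 and 204 FPKM after IGF1, without overlap (0.79 ± 0.23, adjusted p = 0.0536). Psmb9 was at 239, 514 and 235 against 515, 527 and 541 FPKM (0.78 ± 0.33, adjusted p = 0.0978), and Psmb8 at 732, 1279 and 732 against 1206, 1214 and 1238 FPKM (0.47 ± 0.27, adjusted p = 0.189). By limma 0 of these 3 genes were called (1 was higher at an unadjusted p under 0.05, against 19.0% of all genes). Without control replicate 2, Psmb9 (1.15) and Psmb10 (1.04) were called higher and Psmb8 was at 0.74, and the sign of Psmb8 turned after quantile normalization (-0.44). A constant factor per library leaves a ratio of 2 genes unchanged, though quantile normalization and removal of length and GC trends do not. With these trends removed, the log2 fold change was 0.315 for Psmb10 and 0.547 for Psmb7. The ratios were chosen with their values known and not tested. Psmb10 over Psmb7 was 0.794, 1.06 and 0.836 in the controls and 1.64, 1.53 and 1.58 in the IGF1 libraries, or 0.895 ± 0.141 against 1.58 ± 0.053 (SD, n = 3). Psmb9 over Psmb6 was 0.604, 0.601 and 0.585 against 0.649, 0.647 and 0.649. In both of these ratios control replicate 2 was nearer to the other controls than to the IGF1 libraries. Psmb8 over Psmb5 was 2.15 to 2.23 in the controls and 2.23 to 2.44 in the IGF1 libraries, so the groups met at 2.23. In the lid, Psmd14 over Psmd7 was 1.08, 0.716 and 1.06 against 0.407, 0.382 and 0.400.

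**Figure D4:**
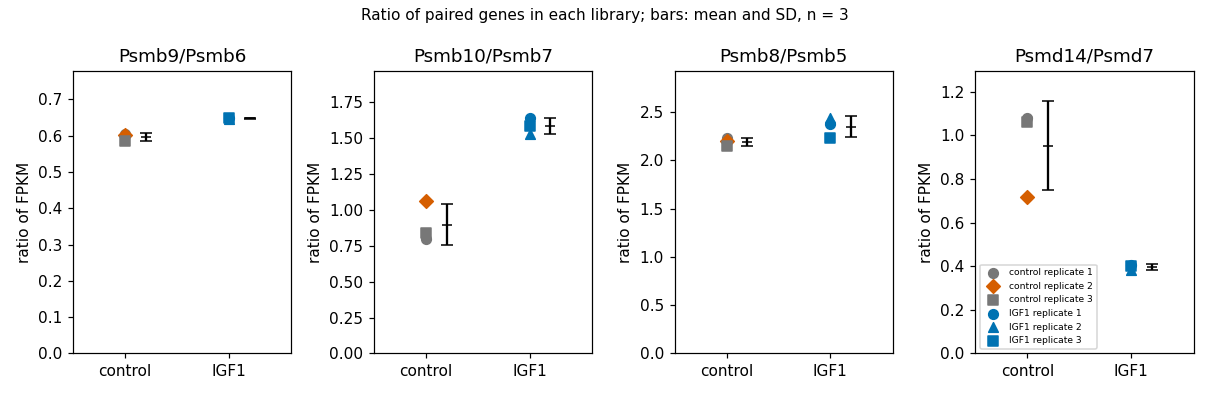
Ratio of the FPKM of paired genes in each library (grey and orange, control; blue, IGF1), with mean and SD beside the points (n = 3), axes from 0. The Psmb10 to Psmb7 ratio is at most 1.06 in the controls and at least 1.53 in the IGF1 libraries, and the Psmd14 to Psmd7 ratio at least 0.716 and at most 0.407.

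Other genes of the pathway came from 8 lists with 50 genes in the files, of which 48 were tested. Of these 48, 0 were called higher and 2 lower, and on adjusted p alone 0 were higher and 10 lower by limma. Of all genes, 1.98% were called higher and 4.63% lower, and on adjusted p alone 6.26% were higher and 14.1% lower. At an unadjusted p under 0.05, 7 of the 48 were higher and 21 lower, against 19.0% and 34.4% of all genes. With control replicate 2 left out, 8 of the 48 were called higher and 10 lower, against 12.3% and 20.6% of all genes. The median log2 fold change was -0.41, and -0.44 without that library. Usp14, a deubiquitinase that binds the base and trims chains, was called lower, at 47.7, 26.2 and 46.1 FPKM in the control libraries and 19.2, 18.7 and 17.98 FPKM after IGF1 (-1.01 ± 0.24, adjusted p = 0.0434). Ubqln1, a shuttle that brings ubiquitinated proteins to the proteasome, was called lower, at 68.5, 19.3 and 68.5 against 12.9, 11.7 and 11.4 FPKM (-1.83 ± 0.49, adjusted p = 0.0496). Both had no overlap. Neither call held without control replicates 1 or 3 or any IGF1 library (adjusted p = 0.152 to 0.165). In those fits limma called 0 of all 10449 genes. Neither call held after quantile normalization, where Usp14 was at -0.76 and Ubqln1 at -1.61 with an adjusted p of 0.0509. With length and GC trends removed, Usp14 was at -0.44 (adjusted p = 0.0513) and Ubqln1 at -1.38 (adjusted p = 0.0508). Usp14 was also short of a 2-fold change under 75th percentile (-0.75) and trimmed mean scaling (-0.81). The small lid subunit Sem1, listed as Shfm1, was at 302, 748 and 293 against 850, 898 and 851 FPKM (1.10 ± 0.39, adjusted p = 0.0714), and was called higher at 1.54 without control replicate 2. Pomp, the maturation factor of the core particle, was at 273, 496 and 282 against 506, 495 and 508 FPKM (0.58 ± 0.26, adjusted p = 0.113).

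The regulators of proteasome transcription had 0 calls by limma among the 9 tested. At an unadjusted p under 0.05, 0 were higher and 5 lower, against 19.0% and 34.4% of all genes. Without control replicate 2, 0 were called higher and 2 lower, against 12.3% and 20.6% of all genes. Nfe2l1 (NRF1) was at 12.7, 7.36 and 12.8 FPKM in the control libraries and 6.66, 7.23 and 7.01 FPKM after IGF1 (-0.55 ± 0.22, adjusted p = 0.0902). Nfe2l2 (NRF2, a related factor of the oxidative stress response) was at 51.0, 19.4 and 50.2 against 13.6, 14.3 and 14.6 FPKM (-1.32 ± 0.37, adjusted p = 0.0525), and was called lower at -1.77 without control replicate 2. Neither gene had overlap, and for both control replicate 2 was nearer to the IGF1 libraries than to the other controls.

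The 2 particles also differ in transcript length, and fold changes moved with length over all genes. The length implied by the deposited values had a median of 1060 bases for the 14 core genes and 1600 bases for the 20 regulatory genes. Across the 34 subunit genes the rank correlation of the log2 fold change with this length was -0.62, and across 10352 genes it was -0.23. With GC content it was 0.44 and 0.38. These are descriptions across genes, which share the libraries and are not independent. With the genes split into 5 equal bins, the bin of the shortest transcripts had a median log2 fold change of 0.43, against -0.24, -0.45, -0.43 and -0.11 in the longer bins, and it held 13 of the core and 12 of the regulatory genes. The trends of length and GC content were then removed, with the length of the longest GENCODE transcript and not the implied length. These lengths differ for some genes (2849 against 1070 bases for Psmb7, and 2911 against 955 for Psma2). The medians were then 0.02 over the 15 core genes tested and -0.23 over the 21 regulatory genes. Psmd14 was still lower (-1.12, adjusted p = 0.0307), while Psmb6 was at 0.02 and Psmb5 turned to -0.50. The part of length and GC content in the difference between the particles was not tested beyond this.

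**Figure D5:**
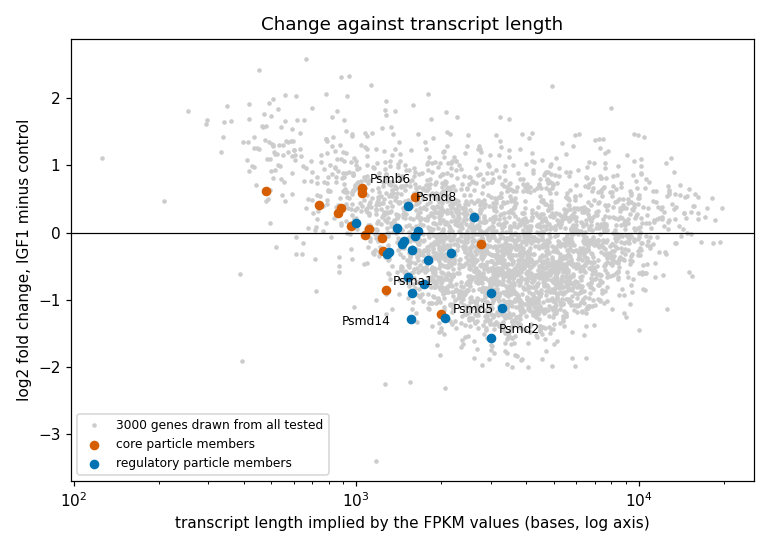
Log2 fold change (IGF1 minus control) against the transcript length implied by the FPKM values (bases, log axis) for core genes (orange), regulatory genes (blue) and a draw of all tested genes (grey). The core genes lie mostly at shorter lengths than Psmd2 and Psmd5, and the rank correlation is -0.62 over 34 subunit genes.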

How the data were processed

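RNA-seq values of HSCs were used from 3 control and 3 IGF1 libraries, grouped by the sample titles. The dose and day came from the study's methods and legends. Libraries were made with a stranded mRNA kit. The submitters' processing notes list fastp, HISAT2, StringTie and GRCm38/mm10, whereas the study's methods name RSEM. The authors deposited 1 value for each of 21878 gene symbols per library, which was taken as FPKM because each gene's values rise in whole steps that depend on its length; the unit is not stated in the files. Rows with names like dates (27) or shared names (4) hold no gene named here.

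Whole reads were recovered from these steps for 15640 of 15640 rows above 0 (100.00%, tolerance 0.01 read), against 0.00% of 300 rows with jittered values. Reads per library were 15879605, 11429198 and 15973834 (control) and 12262662, 11206800 and 12756225 (IGF1), approximate in scale. Subunit genes without the exceptions had 454 to 12026 reads in a library, and intervals from such counts would cover counting error only.

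The 10449 genes that reached 1 FPKM in 3 or more libraries were compared by limma (version 3.58.1, R 4.3.3; lmFit, eBayes with a trend), 2-sided, after log2(FPKM + 1). A call needed more than a 2-fold change and an adjusted p (Benjamini-Hochberg, all genes tested) under 0.05, and this scale understates changes of low genes. The fit was tested on simulated data. The members and lists were chosen with earlier results of these data known, so medians carry no test. Values are given per library for called members, the catalytic subunits, Psmd14, Psmd2, Psmd4, the exceptions and the 3 largest rises and falls in each of Psma, Psmb, Psmc and Psmd. They are also given for called genes of the related lists, Psmb8, Psmb9, Psmb10, Nfe2l1, Nfe2l2, Pomp and Sem1. Psmb7, the only Psmb gene below 0, was the only fall in Psmb. Psmd1, Psmd7, Psmd11, Psmd12 and Psmd13 were added after their values were seen, as were the ratios of gene pairs. Paaf1 was not found, and Ddi2 and Foxo4 were not tested. Promoter sequences are from RefSeq (GRCm38.p6), and transcript lengths and GC content from GENCODE.

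The alternatives were 3 other scalings, pseudocounts of 0.1 and 5, no filter or a minimum of 5 FPKM, no variance trend, a replicate block, library weights, removal of length and GC trends, limma-voom on recovered reads, other thresholds and leaving out each library. Removing the trends together with control replicate 2 was added after the data were seen.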

Additional observations from a re-analysis of the deposited data

How the results depend on the processing

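Depth limits Psma8 and Psmb11 most. The number of tested genes called lower (2) was 1 with a pseudocount of 5 or a minimum of 5 FPKM, 3 after quantile normalization (with Psma1), 7 with library weights or on adjusted p alone, 4 at an unadjusted p with the fold threshold, and 4 with length and GC trends removed and without control replicate 2. With length and GC trends removed it was 2, with Psma1 in the place of Psma8. The number called higher (0) was 1 with library weights and 2 with both changes together. Leaving out each library in turn gave 0 to 7 lower and 0 to 1 higher: 7 lower and 1 higher without control replicate 2, and 0 and 0 without any of the other 5, where limma also called 0 of all 10449 genes and 8 to 9 of the 36 were lower at an unadjusted p under 0.05. Library weights gave control replicate 2 a weight of 0.0137, against 1.9 to 3.64.

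The core median (0.10) was -0.32 after quantile normalization and 0.37 after 75th percentile scaling, and -0.014 without control replicate 3, 0.001 without control replicate 1 and 0.313 without control replicate 2. The difference between the medians (0.41) ranged from 0.215 to 0.735 with each library left out and was 0.052 after quantile normalization. The regulatory median (-0.30) was -0.034 after 75th percentile scaling, -0.10 after trimmed mean scaling, -0.42 with library weights, -0.23 with length and GC trends removed, and -0.42 to -0.23 with each library left out. The median of all genes was -0.18 as deposited, -0.02 after quantile normalization, 0.06 after 75th percentile scaling and 0.00 after trimmed mean scaling. The cause of the other shifts was not tested.

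Signs turned as follows (log2 fold changes) among the genes chosen by rule for values per library. After quantile normalization Psmb5 was -0.17, Psmb6 -0.052, Psmd4 -0.077, Psma7 -0.014, Psma2 -0.53, Psma6 -0.44, Psmc3 -0.23 and Psmb8 -0.44. Signs of other genes turned too, among them Psmb2 (-0.53) and Psmb3 (-0.32) after quantile normalization. Psmd7 was 0.22 after 75th percentile scaling, and Psmb2 was -0.46 and Psma3 0.425 with length and GC trends removed. Psmb7 was 0.23 after 75th percentile scaling, 0.17 after trimmed mean scaling and 0.084 with library weights. With length and GC trends removed, and then also without control replicate 2, Psmb5 was -0.50 and -0.57, Psmb7 0.55 and 0.83, Psmc3ip -0.12 and -0.01, Psma6 -0.34 and -0.40, Psmc3 -0.071 and -0.069, and Psmc2 0.21 and 0.27. With single libraries left out, Psmb7 ranged from -0.111 to 0.088, Psmc3ip from -0.034 to 0.411, Psma2 from -0.014 to 0.313, Psma6 from -0.021 to 0.215 and Psmc3 from -0.003 to 0.069.

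Libraries with the same replicate number did not deviate together (correlations of -0.057, -0.05 and 0.006). Control replicate 2 lay far from the other controls, so these correlations cannot decide whether the numbers pair the libraries. With a replicate block limma called 0 genes of all tested and 0 of the 36, of which 9 were lower and 0 higher at an unadjusted p under 0.05.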
